A study of Mus musculus with 4 samples.

Results

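The nuclear-encoded subunits of the mitochondrial respiratory chain were followed in whole mouse pancreas late in gestation (E18.5). The members were taken by symbol: every gene whose name begins with Ndufa, Ndufb, Ndufc, Ndufs or Ndufv and a number, the genes Sdha to Sdhd, all Uqcr genes, Cyc1, Cox4 to Cox8 and all Atp5 genes, apart from Cox4nb. This gave 86 of the 24391 genes in the count table, 38 named for complex I, 4 for complex II, 9 for complex III, 18 for complex IV and 17 for complex V. The data were 2 RestpKO libraries, labelled Pdx1Cre RESTLoxP/LoxP, and 2 control libraries, labelled Pdx1Cre RESTwt, all from E18.5 embryos of mixed strain with C57BL/6. Both genotypes carried Pdx1-Cre, and the floxed allele loses exon 4 of Rest, a repressor of neuronal and endocrine genes, where that Cre is active. Pdx1-Cre acts in the pancreatic epithelium, so mesenchyme, vessels and blood cells of the organ keep Rest. According to the methods 3 pancreas were used per genotype, and which of them the libraries represent is not said. The labels do not state that replicates are separate embryos, and the p-values measure the spread between these libraries only.

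The respiratory chain passes electrons from NADH and succinate to oxygen and uses the energy to pump protons across the inner mitochondrial membrane. Complexes I (NADH dehydrogenase) and II (succinate dehydrogenase) feed ubiquinone, complex III hands the electrons to cytochrome c, complex IV (cytochrome c oxidase) reduces oxygen, and complex V (ATP synthase) lets the protons flow back to make ATP. Most subunits are encoded in the nucleus and share regulators such as NRF1 and GABP, while a few core subunits come from mitochondrial DNA, and none of those were in the count table.

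Counts summed to 20738162 and 24134100 in the RestpKO libraries, against 16936759 and 18644088 in the control libraries, and 14550 genes had enough counts to be tested. Rest itself had 12.1 and 9.16 CPM (counts scaled to library size with TMM factors) in RestpKO libraries, against 14.2 and 15.7 CPM in control libraries, a log2 fold change of -0.49 that did not pass edgeR's quasi-likelihood test (adjusted p = 0.593); counts over all exons and cells do not measure the loss of exon 4. Libraries of a genotype differed far beyond sampling noise, by a chi-square per degree of freedom of 64.9 in RestpKO and 23.2 in control pancreas. Each genotype had 1 male and 1 female library by sex-linked counts. Summed markers of acinar cells were 183832 and 265981 CPM in RestpKO libraries, against 190282 and 176951 CPM in control libraries. Those of islets were 4553 and 6656 CPM in RestpKO libraries, against 3107 and 2098 CPM in control libraries. Those of mesenchyme were 4100 and 6517 CPM in RestpKO libraries, against 8030 and 7134 CPM in control libraries. In a whole organ, fewer cells of a type and less RNA per cell cannot be told apart.

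Respiratory chain genes lay slightly above their control level in RestpKO pancreas as a set, in 1 of the 2 libraries, and no single member passed the test. Of the 86 members, 81 could be tested, and 69 of these had a log2 fold change (RestpKO over control) above 0, which 49.5% of all genes tested had. The median over the members was 0.19, beside -0.00478 over all genes, and the members ran between -0.41 and 0.84. edgeR called 0 members at an adjusted p under 0.05, where it called 0% of all genes higher and 0.0275% lower. Nor was any member called by DESeq2, which called 0.182% of genes higher and 0.533% lower, or by a fit in edgeR that included sex, which called 0.412% and 1.29%. At an unadjusted p under 0.05, 3 members were higher and 0 lower, beside 3.26% and 5.61% of all genes. Both RestpKO libraries lay above both control libraries for 24 members, against 21.5% of all genes, and below them for 2, against 21.2% of all genes, while 55 members overlapped. The untested members were Ndufs5 and the tissue-restricted Cox6a2, Cox7b2, Cox8b and Cox8c.

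The complexes resembled one another. The median log2 fold change was 0.20 over the 37 tested members of complex I, 0.14 over the 4 of complex II, 0.19 over the 9 of complex III, 0.16 over the 14 of complex IV and 0.18 over the 17 of complex V. Log2 fold changes above 0 were found in 31, 3, 8, 13 and 14 members of complexes I to V, in that order. Members were assigned to complexes by name. Those of complex V include Atp5s and Atp5sl, which RefSeq lists as Dmac2l and Dmac2. For each library, the median log2 deviation of a complex's members from their mean over the 4 libraries was also taken. Its SD between replicates, pooled over both genotypes, was 0.11 in complex II and up to 0.24 in complex III. In complex III these medians were -0.11 and 0.37 in RestpKO libraries, against -0.09 in both control libraries. Part of this spread was shared, as the medians of complexes I to V were all highest in RestpKO replicate 2. The SD therefore does not measure how far the complexes differ within a library, and the differences among them were not tested.

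**Figure D1:**
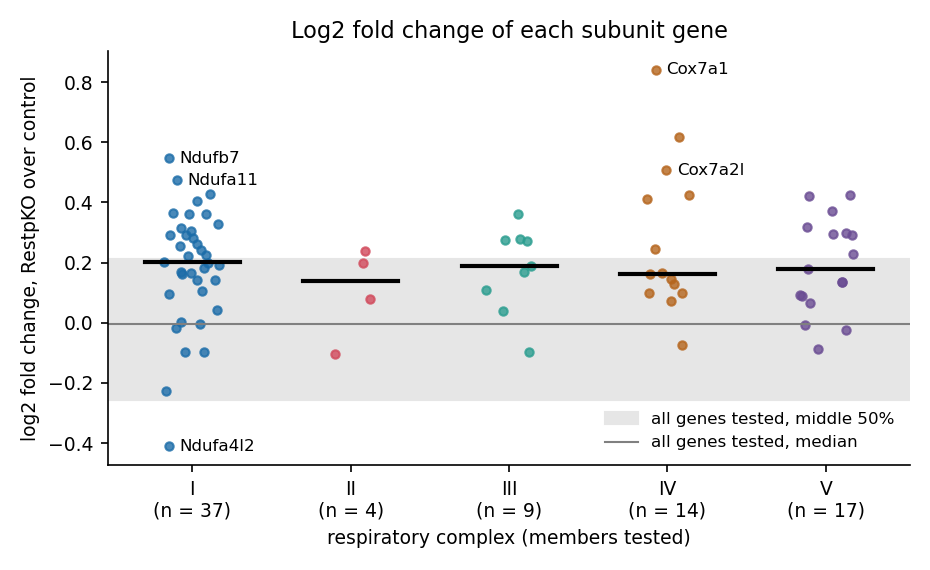
Log2 fold change (RestpKO over control, n = 2 libraries each) of every tested member, by the complex it is named for. Each point is a gene, black bars are complex medians (0.20, 0.14, 0.19, 0.16 and 0.18 in complexes I to V), and the grey band and line are the middle 50% and the median of all 14550 genes tested. All 5 medians lie above the line for all genes, and most points lie within or just above the band.

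The composition of the chain, as transcripts, was nearly the same in the 4 libraries. Complex I took 31.7% and 32.0% of the members' counts in RestpKO libraries, against 31.8% and 31.1% in control libraries. Complex V took 37.2% and 36.0% in RestpKO libraries, against 35.8% and 37.0% in control libraries, and its catalytic subunits Atp5a1 and Atp5b alone made up 19.996% and 18.7% in RestpKO libraries, against 18.47% and 19.4% in control libraries. Complex III held between 10.1% and 10.5% and complex IV between 15.2% and 16.1% of the members' counts. Complex II had the lowest share in RestpKO replicate 2, with 5.89% and 5.33% in RestpKO libraries, against 6.31% and 6.00% in control libraries. None of these shares except that of complex II kept the genotypes apart, and its gap between 5.89% and 6.00% was smaller than the difference between either pair of replicates.

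The higher level of the chain rested on a single library. RestpKO replicate 2 had the highest CPM of the 4 libraries for 64 of the 81 members, whereas RestpKO replicate 1 had it for 8, control replicate 1 for 7 and control replicate 2 for 2. The median deviation of the members from their own mean was -0.08 and 0.27 (log2) in RestpKO libraries, against -0.07 and -0.13 in control libraries. RestpKO replicate 1 exceeded control replicate 1 in 39 members and control replicate 2 in 53, with median log2 differences of -0.01 and 0.07. RestpKO replicate 2 exceeded control replicate 1 in 67 members and control replicate 2 in 70, with medians of 0.32 and 0.37, and it also exceeded RestpKO replicate 1 in 68, with a median of 0.31. Without RestpKO replicate 2 the median log2 fold change of the members was 0.02, with 46 of 81 above 0, beside 50.3% of all genes. Without RestpKO replicate 1 it was 0.36, and 1 member, Ndufb7, was called (log2 fold change 0.80, adjusted p = 0.0441), in a fit that called 0.395% of all genes higher and 3.05% lower.

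**Figure D2:**
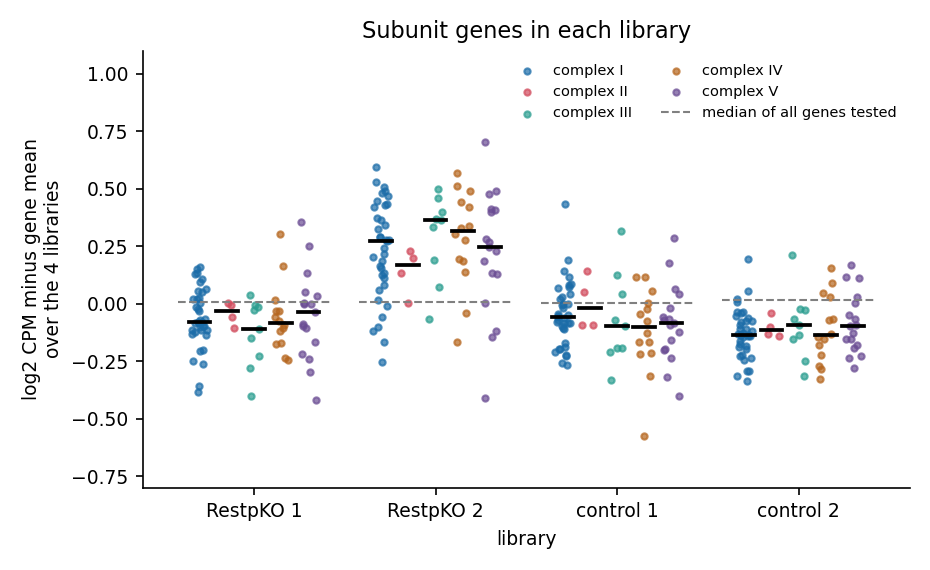
Deviation of each tested member's log2 CPM (pseudocount 0.5) from its mean over the 4 libraries, by library and complex. Black bars are medians per complex and dashed lines are the median of all genes tested. The medians of all 5 complexes are above 0 in RestpKO replicate 2 and below 0 in the other 3 libraries.

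The summed level over the members was 6300 and 7847 CPM in RestpKO libraries, against 6264 and 6035 CPM in control libraries, or 7074 ± 1094 and 6150 ± 162 CPM (SD, n = 2 each), a ratio of 1.15. The groups did not overlap, but RestpKO replicate 1 was barely above control replicate 1, and with 2 libraries in each group an exact permutation test cannot reach a p below 0.33. As a share of all raw counts the ratio was 1.08, and without RestpKO replicate 2 the summed CPM gave 1.02. Complex II had the lowest ratio of summed CPM, 1.04, and complex I the highest, 1.17.

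Within complex I, Ndufs1 of the arm that oxidizes NADH, which holds iron-sulfur clusters, stood at nearly equal levels, 73.2 and 63.9 CPM in RestpKO libraries, against 70.6 and 66.9 CPM in control libraries. Its partner Ndufv1, which binds NADH, had 69.1 and 102 CPM in RestpKO libraries, against 64.0 and 69.4 CPM in control libraries, with RestpKO replicate 1 just below the higher control.

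The smallest p-values of complex I belonged to accessory subunits. Ndufb7, a small subunit of the membrane arm on the intermembrane side (chromosome 8, 86090570 to 86095525, mm9), had 46.9 and 68.5 CPM in RestpKO libraries, against 40.4 and 38.6 CPM in control libraries. Both RestpKO libraries were above both controls, the lower of them by less than the 2 RestpKO libraries differed. The means were 57.7 ± 15.3 and 39.5 ± 1.30 CPM (SD, n = 2 each), a log2 fold change of 0.55 (SE 0.22, adjusted p = 0.539 from edgeR). It was 0.36 once a trend with transcript length was removed and 0.25 without RestpKO replicate 2. Ndufa11, which stabilizes the membrane arm (chromosome 17, 56857185 to 56863671, mm9), had 42.8 and 56.8 CPM in RestpKO libraries, against 34.9 and 36.9 CPM in control libraries. The groups were again separated, with a log2 fold change of 0.47 (SE 0.20, adjusted p = 0.556 from edgeR). It was 0.46 once the trend with transcript length was removed and 0.26 without RestpKO replicate 2. The transcript used for Ndufa11 has 2661 bases, beside 623 in Ndufb7. Ndufb9 had 106 and 154 CPM in RestpKO libraries, against 92.9 and 101 CPM in control libraries, and Ndufa3 had 38.9 and 59.1 CPM in RestpKO libraries, against 37.0 CPM in both control libraries. In both genes RestpKO replicate 1 stayed close to the controls and replicate 2 was high. Ndufa6, among the most abundant subunits of this complex per length, was level, with 93.9 and 113 CPM in RestpKO libraries, against 112 and 95.2 CPM in control libraries.

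Ndufa4 and Ndufa4l2 carry complex I names, but NDUFA4 is a subunit of complex IV, and NDUFA4L2 is its paralog, known as a target of hypoxia signaling. Ndufa4 had 103 and 113 CPM in RestpKO libraries, against 98.2 and 92.1 CPM in control libraries, a log2 fold change of 0.18. Ndufa4l2 had 12.1 and 13.4 CPM in RestpKO libraries, against 19.9 and 14.1 CPM in control libraries, and with a log2 fold change of -0.41 (SE 0.23, adjusted p = 0.641 from edgeR) it was the lowest of the tested members. Within a library the proportion of Ndufa4l2 in the counts of the pair was 10.5% and 10.6% in RestpKO libraries, against 16.9% and 13.3% in control libraries. The 95% exact binomial (Clopper-Pearson) intervals reached up to 11.8% in both RestpKO libraries and began at 15.3% and 11.8% in control replicates 1 and 2, so control replicate 1 lay apart, while the interval of control replicate 2 overlapped that of RestpKO replicate 2. These intervals cover counting error only. The ratio does not depend on the scaling between libraries. Ndufa4l2 is also expressed in pericytes, and the summed smooth muscle and pericyte markers were 144 and 182 CPM in RestpKO libraries, against 135 and 173 CPM in control libraries, while mesenchymal markers were lower in RestpKO pancreas as given above. Their part in the result was not tested.

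Complex II, the only complex with no subunit from mitochondrial DNA and also an enzyme of the citric acid cycle, differed least in summed level. Sdha, the flavoprotein that oxidizes succinate, had 136 and 147 CPM in RestpKO libraries, against 162 and 143 CPM in control libraries, a log2 fold change of -0.10. Sdhb, the iron-sulfur subunit, had 92.7 and 106 CPM in RestpKO libraries, against 100 and 87.9 CPM in control libraries. For both catalytic subunits the groups overlapped. The membrane anchors Sdhc and Sdhd were separated by genotype, though narrowly. Sdhc had 62.3 and 73.0 CPM in RestpKO libraries, against 58.3 and 56.4 CPM in control libraries (log2 fold change 0.24), and Sdhd had 79.9 and 92.1 CPM in RestpKO libraries, against 75.1 and 74.7 CPM in control libraries (log2 fold change 0.20).

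In complex III, Uqcrc1, a core protein of the matrix side, had the smallest p of the complex. It had 96.3 and 126 CPM in RestpKO libraries, against 77.3 and 95.7 CPM in control libraries, and RestpKO replicate 1 was only just above control replicate 2 (log2 fold change 0.36, SE 0.21, adjusted p = 0.644 from edgeR). Cyc1, the heme protein that passes electrons to cytochrome c, had 66.1 and 92.1 CPM in RestpKO libraries, against 62.4 and 68.1 CPM in control libraries, with overlapping groups. Several small subunits of the complex were highest in RestpKO replicate 2. Uqcr10 had 35.4 and 61.1 CPM in RestpKO libraries, against 37.6 and 42.2 CPM in control libraries, so that RestpKO replicate 1 was the lowest and replicate 2 the highest of the 4. Uqcrq had 38.6 and 67.6 CPM in RestpKO libraries, against 44.2 and 59.3 CPM in control libraries, again with the RestpKO libraries at both ends. The median of the complex without RestpKO replicate 2 was -0.06.

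In complex IV, the general subunits had a median log2 fold change of 0.14, with 9 of 10 above 0. None of the 10 had both RestpKO libraries above both controls, which 21.5% of all genes tested had. Cox4i1, the general form of subunit 4, had 186 and 281 CPM in RestpKO libraries, against 161 and 191 CPM in control libraries. Cox6b1 had 135 and 192 CPM in RestpKO libraries, against 165 and 127 CPM in control libraries. Cox6a1 had 109 and 149 CPM in RestpKO libraries, against 119 and 117 CPM in control libraries. In these 3 genes the highest library was RestpKO replicate 2, and RestpKO replicate 1 was below at least 1 control. Cox8a was the only general subunit below both controls, by a small margin, with 71.5 and 71.1 CPM in RestpKO libraries, against 72.0 and 78.0 CPM in control libraries (log2 fold change -0.07).

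Cox7a2l had the smallest p of all members and, unlike most of them, was high in both RestpKO libraries. It encodes a relative of COX7A2 that joins complexes III and IV in supercomplexes (chromosome 17, 83901259 to 83913673, mm9). It had 94.2 and 106 CPM in RestpKO libraries, against 72.0 and 68.9 CPM in control libraries, or 100.2 ± 8.49 and 70.5 ± 2.22 CPM (SD, n = 2 each). The gap between the groups was larger than the difference within either group. The log2 fold change was 0.51 (SE 0.17), with an unadjusted p of 0.01995 and an adjusted p of 0.495 from edgeR's quasi-likelihood test, 0.508 from DESeq2 and 0.588 with sex as a term. It was 0.42 without RestpKO replicate 2, 0.60 without RestpKO replicate 1 and 0.36 with the length trend removed. Cox7a2, its paralog in the complex, had 78.8 and 126 CPM in RestpKO libraries, against 88.2 and 84.9 CPM in control libraries. The proportion of Cox7a2l in the counts of this pair was 54.4% and 45.7% in RestpKO libraries, against 44.9% and 44.8% in control libraries, so only RestpKO replicate 1 stood apart in this ratio. A stretch of 22.2% of the Cox7a2l transcript has a near-identical copy on chromosome 12, and reads from it could have been lost or shared.

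Isoforms of complex IV that are restricted to certain tissues were at very low levels, and several were highest in RestpKO replicate 2. Cox6a2, the form of heart and skeletal muscle, had 10 and 34 counts in RestpKO libraries, against 6 and 5 counts in control libraries, too few to be tested. Its proportion of the pair with Cox6a1 was 0.423% and 1.03% in RestpKO libraries, against 0.30% and 0.215% in control libraries. Only the interval of RestpKO replicate 2 (0.714% to 1.44%) lay above those of both controls (up to 0.651% and 0.50%). Cox7a1, another muscle form, had 0.603 and 1.28 CPM in RestpKO libraries, against 0.595 and 0.454 CPM in control libraries, which gave the largest log2 fold change of the tested members, 0.84 (SE 0.58, adjusted p = 0.675 from edgeR). RestpKO replicate 1 was barely above a control, and without RestpKO replicate 2 the value was 0.21. Cox8b had 2 and 3 counts in RestpKO libraries, against 0 in both control libraries, where 3 counts would be 0.179 and 0.151 CPM.

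Skeletal and cardiac muscle markers were highest in the same library. The 10 markers summed to 22.3 and 158 CPM in RestpKO libraries, against 21.7 and 23.9 CPM in control libraries, so that RestpKO replicate 2 alone stood apart. All 9 tested markers had a log2 fold change above 0, which 49.5% of all genes tested had. In 5 of these both RestpKO libraries lay above both controls, beside 21.5% of all genes. Among the 5 was Myh3, an embryonic myosin, with 0.556 and 10.4 CPM in RestpKO libraries, against 0.298 and 0.0504 CPM in control libraries. The 6 brown fat markers summed to 75.3 and 100.5 CPM in RestpKO libraries, against 87.9 and 64.7 CPM in control libraries, mostly from Fabp4, with 68.4 and 96.7 CPM in RestpKO libraries, against 81.8 and 58.8 CPM in control libraries, and the defining Ucp1, Elovl3 and Adipoq were under 0.2 CPM in every library. The part of muscle RNA in the level of these isoforms was not tested. Cox4i2, the form of subunit 4 known from lung and from low oxygen, had 2.32 and 3.46 CPM in RestpKO libraries, against 1.37 and 2.37 CPM in control libraries. Its proportion of the pair with Cox4i1 was 1.23% and 1.22% in RestpKO libraries, against 0.845% and 1.23% in control libraries, with overlapping groups. Cox6b2, the testis form of subunit 6b, had 3.01 and 4.46 CPM in RestpKO libraries, against 2.80 and 2.77 CPM in control libraries, and a proportion of 2.18% and 2.27% in RestpKO libraries, against 1.66% and 2.15% in control libraries. Of the other testis forms, Cox7b2 had at most 0.0927 CPM in any library and Cox8c had 0 counts in all 4.

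**Figure D3:**
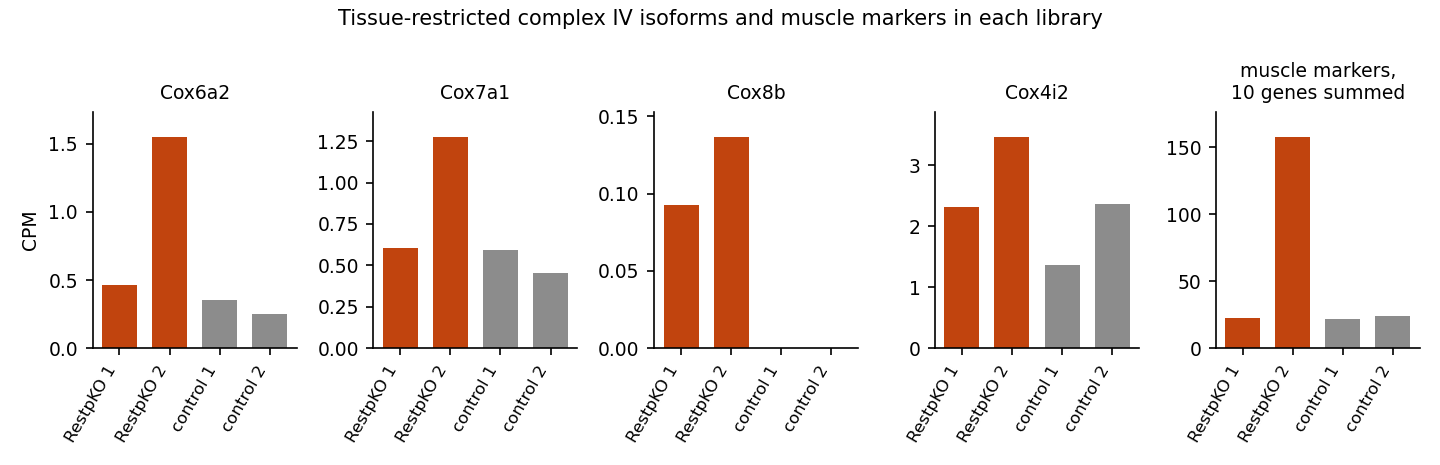
CPM of Cox6a2, Cox7a1, Cox8b and Cox4i2 and the summed CPM of 10 skeletal and cardiac muscle markers in each library (RestpKO orange, control grey; each bar is 1 library and each panel has its own axis from 0). The muscle markers are at 158 CPM in RestpKO replicate 2 and between 21.7 and 23.9 CPM in the other 3 libraries, and the 4 isoforms are also highest in RestpKO replicate 2.

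In complex V, the catalytic head had a median log2 fold change of 0.23 with all 5 genes above 0. Atp5b, the catalytic beta subunit (chromosome 10, 127520329 to 127527447, mm9), was the most abundant member per length and had 739 and 894 CPM in RestpKO libraries, against 660 and 674 CPM in control libraries. Atp5a1, the alpha subunit, had 521 and 573 CPM in RestpKO libraries, against 497 and 499 CPM in control libraries. The genotypes were separated for both, with log2 fold changes of 0.29 and 0.14, and neither passed the test (adjusted p = 0.685 and 0.830 from edgeR). Atp5e, the small epsilon subunit, varied widely between replicates, with 64.7 and 142 CPM in RestpKO libraries, against 65.5 and 93.9 CPM in control libraries. RestpKO replicate 1 was the lowest library for this gene. Of the peripheral stalk and membrane subunits, Atp5k had 42.1 and 56.1 CPM in RestpKO libraries, against 33.7 and 39.5 CPM in control libraries (log2 fold change 0.42, adjusted p = 0.609 from edgeR). Atp5o had 151 and 173 CPM in RestpKO libraries, against 144 and 120 CPM in control libraries, and both genes were separated by genotype. For Atp5o, 44% of the exon bases overlap another gene.

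The c subunit, which forms the rotating ring, is encoded by 3 genes that give the same mature protein. Atp5g3 was the main source of counts, with 109 and 143 CPM in RestpKO libraries, against 104 and 137 CPM in control libraries. Atp5g1 had 43.5 and 64.5 CPM in RestpKO libraries, against 40.2 and 40.4 CPM in control libraries (log2 fold change 0.42, adjusted p = 0.632 from edgeR). Without RestpKO replicate 2 the log2 fold change of Atp5g1 was 0.11, and without RestpKO replicate 1 it was 0.68. Atp5g2 had between 0.865 and 1.30 CPM in the 4 libraries. The proportion of Atp5g1 in the sum of Atp5g1 and Atp5g3 was 28.5% and 31.0% in RestpKO libraries, against 27.9% and 22.7% in control libraries. The interval of RestpKO replicate 1 (27.0% to 30.1%) overlapped that of control replicate 1 (26.2% to 29.8%), so the ratio was not separated at this depth. Both Atp5g1 and Atp5g2 have near-identical copies in the genome.

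Levels per length differed between complexes and were low for some members with copies in the genome. Among general subunits with less than 40% of the transcript copied elsewhere, the median mean level over the 4 libraries was 57.0 CPM per kb of transcript in complex I (32 genes), 56.6 in complex II (4), 73.1 in complex III (7), 135 in complex IV (8) and 174 in complex V (10). General subunits here leave out the tissue-restricted isoforms and Ndufa4l2, Cox7a2l, Atp5s and Atp5sl. Many small subunits left processed copies in the mouse genome. A search of mm9 for copies of at least 98% identity over at least 100 bases found 14 members with 40% or more of their transcript duplicated, and their median was 22.6 CPM per kb, beside 73.0 over the other 72. The authors kept uniquely mapped reads only, so the counts of these genes are uncertain. Their levels varied widely: Uqcr11, with 85.4% copied, had 107 CPM per kb, whereas Atp5g2 (100%) had 1.57, Ndufb4 (49.8%) 2.80, Ndufab1 (44.9%) 4.10, Atp5l (92.6%) 4.18 and Cox7c (74.1%) 12 CPM per kb. Over the 62 tested members with little or no copy or overlap, under 20% of the bases for each, the median log2 fold change was 0.21, with 55 above 0.

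**Figure D4:**
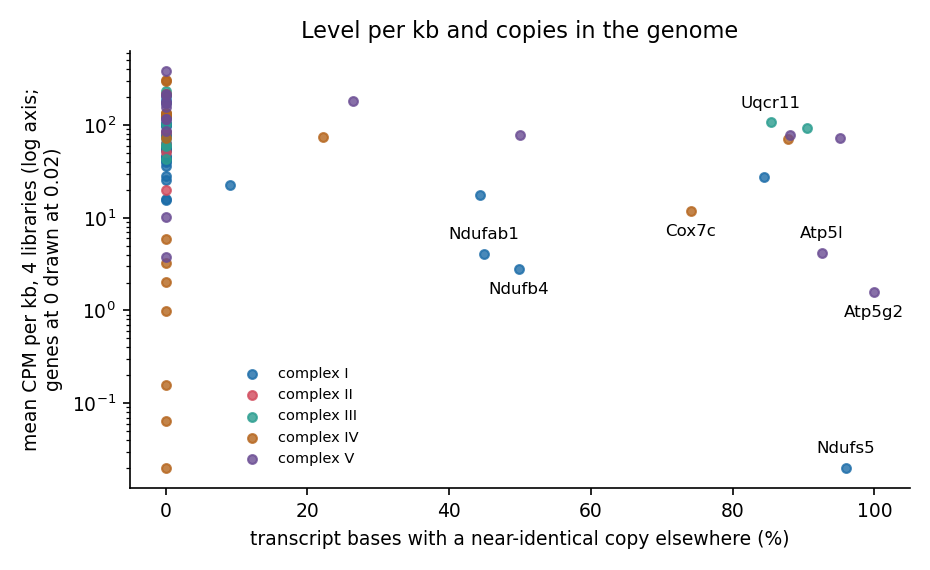
Mean level over the 4 libraries (CPM per kb of transcript, log axis) of all 86 members against the percent of transcript bases with a copy of at least 98% identity elsewhere in mm9. Colors mark the complexes, and the 2 members with 0 counts are drawn at 0.02. Atp5g2, Ndufb4, Ndufab1 and Atp5l lie between 1.57 and 4.18 CPM per kb with 44.9% to 100% copied, while Uqcr11 reaches 107 CPM per kb with 85.4% copied.

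Ndufs5, a small subunit of complex I (chromosome 4, 123389953 to 123395445, minus strand, mm9), had 0 counts in all 4 libraries, where 3 counts would be 0.139 and 0.137 CPM in RestpKO libraries, against 0.179 and 0.151 CPM in control libraries. The pseudogene BC002163 (chromosome 16, 42955744 to 42956064, mm9) lies within a stretch that matches the Ndufs5 transcript at 99.6% identity. It had 711 and 518 counts in RestpKO libraries, against 318 and 366 counts in control libraries, or 33.0 and 23.6 CPM in RestpKO libraries, against 18.9 and 18.46 CPM in control libraries (log2 fold change 0.60, SE 0.22, unadjusted p = 0.0264, adjusted p = 0.504 from edgeR). Here RestpKO replicate 1 was the highest library, unlike in most members. Reads of the gene and of the pseudogene cannot be told apart by these counts. Atp5l, a membrane subunit of complex V (chromosome 9, 44721333 to 44728825, minus strand, mm9), had 1.62 and 2.64 CPM in RestpKO libraries, against 1.96 and 2.32 CPM in control libraries, and has copies on chromosomes 5, 7 and 11. The first 100 coding bases of both genes are shown with the same stretch of a copy, from the mm9 genome, to show how little gene and copy differ. Capitals mark the base at which gene and copy differ. The Ndufs5 copy lies at chr16:42955744-42955843 on the plus strand, and that of Atp5l at chr5:24087581-24087680 on the minus strand.
Ndufs5 transcript: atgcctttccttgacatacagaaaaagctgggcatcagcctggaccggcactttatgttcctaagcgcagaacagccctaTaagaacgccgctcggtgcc
Ndufs5 copy: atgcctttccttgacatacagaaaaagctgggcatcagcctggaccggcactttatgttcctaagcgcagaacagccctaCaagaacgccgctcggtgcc
Atp5l transcript: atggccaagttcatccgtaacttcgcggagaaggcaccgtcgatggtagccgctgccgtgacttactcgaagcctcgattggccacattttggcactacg
Atp5l copy: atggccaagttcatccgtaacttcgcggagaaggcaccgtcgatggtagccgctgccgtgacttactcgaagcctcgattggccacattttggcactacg

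The Ndufs5 stretch and its copy differ at 1 base of 100 and those of Atp5l at 0. For Cox7c too a pseudogene held more counts than the gene, but unlike Ndufs5 the gene kept counts of its own. Cox7c itself had 173 and 124 counts in RestpKO libraries, against 95 and 130 counts in control libraries. The pseudogene Gm12338 lies within a stretch that is identical to 400 bases of the transcript. It had 1547 and 1668 counts in RestpKO libraries, against 1226 and 1048 counts in control libraries. The pseudogene held several times the counts of the gene in every library, and its log2 fold change was 0.23 (adjusted p = 0.731 from edgeR). BC002163 and Gm12338 are not members, and they were picked once their values had been seen.

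Members are short and their fold changes stood beside a trend with transcript length that ran through all genes. The median transcript of the tested members was 763 bases, beside 2713 bases over all genes tested. Over all genes the log2 fold change had a Spearman correlation of -0.320 with transcript length (n = 14277 genes, which are not independent replicates), and over the members one of -0.12 (n = 81). Genes of 500 to 750 bases had a median of 0.17, which the 28 members of this length met with 0.16, and genes over 5000 bases had -0.23. The 12 members of 750 to 1000 bases had 0.29, beside 0.17 over all genes of that length, and the 10 members under 500 bases had 0.27, beside 0.07. With the length trend of each library removed, the members' median was 0.04, with 52 of 81 above 0, beside 50.1% of all genes. Complexes I to V then had medians of 0.06, 0.00211, 0.04, -0.00674 and 0.05.

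GC content also ran with the fold changes. The Spearman correlation with the GC content of the transcript was 0.342 over all genes (n = 13850) and 0.420 over the members (n = 81), as a description. Members with 56% to 60% GC had a median log2 fold change of 0.32 and members under 44% GC one of 0.09, beside 0.11 and -0.29 over all genes of these classes. RestpKO replicate 2 carried this trend most, with genes under 44% GC at -0.42 and genes of 56% to 60% GC at 0.18 (log2 deviation from the gene mean), while RestpKO replicate 1 stood at 0.14 and -0.08. In these classes control replicate 1 stood at 0.21 and -0.11 and control replicate 2 at 0.11 and 0.0064. With GC alone removed the members' median stayed at 0.19, with 69 of 81 above 0, and with both trends removed it was 0.04, with 48 of 81 above 0, beside 50.5% of all genes.

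**Figure D5:**
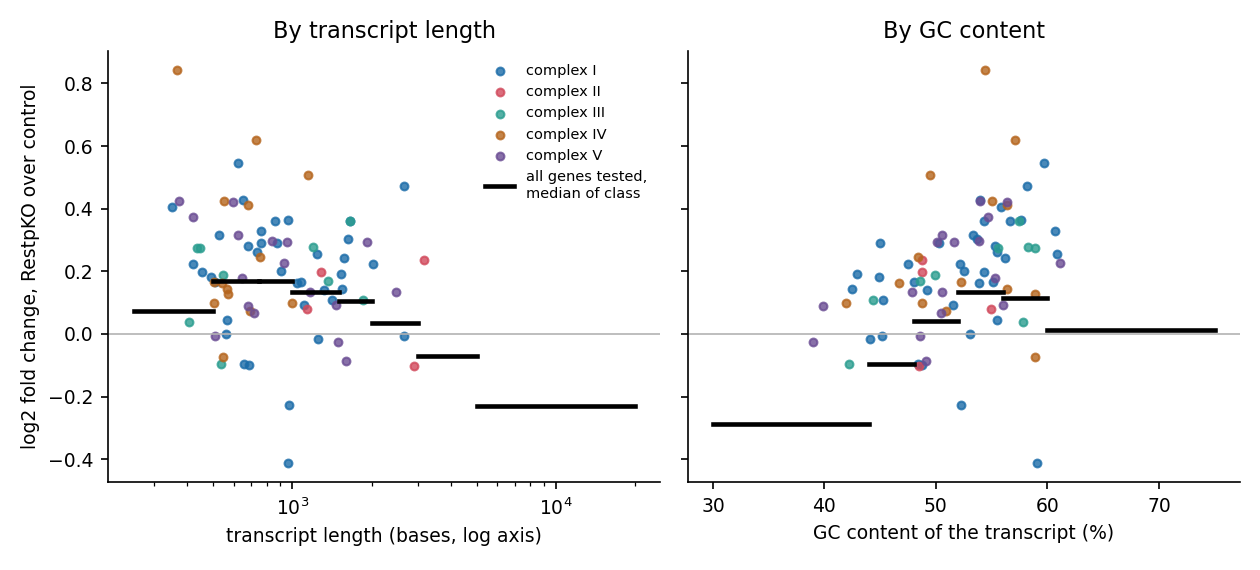
Log2 fold change (RestpKO over control) of the 81 tested members against transcript length (bases, log axis) and against GC content of the transcript (%). Black bars are the median of all genes tested in each class of length or GC content. The bars fall to -0.23 in genes over 5000 bases and lie at 0.17 between 500 and 1000 bases, and by GC content they are lowest, at -0.29, under 44%, and highest, at 0.13, between 52% and 56%.

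Promoters were examined because subunit genes are known to share regulators. RefSeq promoters (GRCm38.p6, 250 bases before to 50 after the start) were matched for 70 of the 86 members, and Atp5a1, Cox4i1, Cyc1, Ndufb9 and Sdhc were among those not matched. The letters GCGCANGCG, the core of the NRF1 site, were found on either strand in 20 of these 70 genes (28.6%), beside 7.03% of all 27025 genes with a promoter. The YY1 letters AAGATGGCG were in 11.4%, beside 1.64% of all genes, the ETS letters CCGGAAGT bound by GABP in 7.14%, beside 4.31%, and the SP1 letters GGGCGGG in 34.3%, beside 27.9%. For the RE1 element that REST binds, the left part TTCAGCACC was in 1 member promoter, that of Atp5k (1.43%, beside 0.433% of all genes), and the right part GGACAGCGC in 0 (0.477% of all genes). All were searched on both strands, none of the motifs contains another, and overlapping matches count as 1. A match is a description and not a bound site. The 19 tested genes with NRF1 letters had a median log2 fold change of 0.20 with 16 above 0, and the 48 tested genes without them had 0.19 with 42 above 0. NRF1 itself (gene Nrf1) had 23.0 and 23.1 CPM in RestpKO libraries, against 20.9 and 20.7 CPM in control libraries (log2 fold change 0.15, adjusted p = 0.790 from edgeR). The gene of YY1 (Yy1) had 38.7 and 18.6 CPM in RestpKO libraries, against 45.4 and 38.7 CPM in control libraries. Its log2 fold change was -0.55 (adjusted p = 0.645 from edgeR), and RestpKO replicate 1 was level with control replicate 2.

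The promoter of 1 member per complex is printed to show where the NRF1 letters stand: in each complex the member with such a match and the smallest p. Capitals mark the NRF1 letters on either strand and, in Atp5k, also the RE1 left part, here on the opposite strand. The positions (GRCm38.p6) are chr17:56717512-56717811 on the plus strand for Ndufa11, chr9:50603800-50604099 on the minus strand for Sdhd, chr9:108936398-108936697 on the plus strand for Uqcrc1, chr5:115348909-115349208 on the minus strand for Cox6a1 and chr5:108434350-108434649 on the minus strand for Atp5k.
Ndufa11: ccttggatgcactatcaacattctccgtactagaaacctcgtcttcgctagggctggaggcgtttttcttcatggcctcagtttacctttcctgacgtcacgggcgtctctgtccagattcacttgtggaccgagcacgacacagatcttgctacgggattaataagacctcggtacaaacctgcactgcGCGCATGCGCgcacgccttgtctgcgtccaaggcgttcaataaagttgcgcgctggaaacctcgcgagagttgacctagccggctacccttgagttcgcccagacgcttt
Sdhd: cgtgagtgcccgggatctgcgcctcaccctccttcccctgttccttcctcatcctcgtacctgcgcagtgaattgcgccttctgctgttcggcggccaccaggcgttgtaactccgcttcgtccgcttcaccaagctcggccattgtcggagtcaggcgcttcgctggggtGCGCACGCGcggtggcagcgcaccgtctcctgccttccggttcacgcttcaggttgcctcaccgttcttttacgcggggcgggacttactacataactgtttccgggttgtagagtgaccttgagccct
Uqcrc1: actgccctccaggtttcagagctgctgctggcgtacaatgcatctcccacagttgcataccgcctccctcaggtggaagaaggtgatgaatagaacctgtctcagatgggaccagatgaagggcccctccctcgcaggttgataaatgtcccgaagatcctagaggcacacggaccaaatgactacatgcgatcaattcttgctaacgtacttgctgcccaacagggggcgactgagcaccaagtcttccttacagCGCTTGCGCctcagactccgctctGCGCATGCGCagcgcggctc
Cox6a1: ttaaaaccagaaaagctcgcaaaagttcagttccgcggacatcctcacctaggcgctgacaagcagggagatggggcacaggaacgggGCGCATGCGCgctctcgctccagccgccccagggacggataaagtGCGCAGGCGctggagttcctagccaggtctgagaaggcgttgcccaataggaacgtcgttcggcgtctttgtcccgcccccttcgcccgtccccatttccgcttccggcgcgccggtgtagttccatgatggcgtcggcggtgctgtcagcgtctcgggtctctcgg
Atp5k: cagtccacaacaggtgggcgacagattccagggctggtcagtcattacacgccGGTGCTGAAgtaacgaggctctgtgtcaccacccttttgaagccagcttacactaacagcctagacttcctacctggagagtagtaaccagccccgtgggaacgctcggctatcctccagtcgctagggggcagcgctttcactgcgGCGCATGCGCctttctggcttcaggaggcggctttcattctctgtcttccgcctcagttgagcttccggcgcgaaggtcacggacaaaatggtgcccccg

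Uqcrc1 and Cox6a1 hold 2 matches each and the other 3 promoters 1 each. These genes were picked for a small p, so their separation by genotype cannot be read as a trait of the NRF1 letters. Ndufa11, Sdhd, Uqcrc1 and Atp5k had both RestpKO libraries above both controls, which 21.5% of all genes tested had. Cox6a1 had overlapping groups.

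Genes that work with the chain gave smaller or similar medians, and edgeR and DESeq2 called none of them. At an unadjusted p under 0.05 edgeR had 1 assembly factor higher and 2 lower, 1 gene of coenzyme Q synthesis higher and 1 of glycolysis higher. Of all genes tested, 3.26% were higher and 5.61% lower at this limit. Among assembly factors 28 of 43 were above 0 on the log2 scale, with a median of 0.10. Bcs1l, which inserts the iron-sulfur protein into complex III, had 14.1 and 14.6 CPM in RestpKO libraries, against 10.7 and 8.93 CPM in control libraries (log2 fold change 0.56, adjusted p = 0.525 from edgeR). Cox11, a copper chaperone of complex IV, had 6.91 and 4.28 CPM in RestpKO libraries, against 9.35 and 9.08 CPM in control libraries (log2 fold change -0.72, adjusted p = 0.544 from edgeR). Both genes were separated by genotype, in opposite directions. Of the 12 genes of coenzyme Q synthesis 9 were above 0 (median 0.17), with Adck3, an atypical kinase of that pathway, at 22.9 and 26.6 CPM in RestpKO libraries, against 13.0 and 17.3 CPM in control libraries (log2 fold change 0.70, adjusted p = 0.453 from edgeR). Of 20 genes of the citric acid cycle and pyruvate dehydrogenase 15 were above 0 (median 0.10), of 10 electron carriers and exchangers 7 (median 0.15), and of 11 genes of glycolysis 9 (median 0.12). Cycs encodes the carrier between complexes III and IV. It had 3.01 and 0.820 CPM in RestpKO libraries, against 3.21 and 2.57 CPM in control libraries. Copies in the genome were searched for members only, so whether Cycs lost reads to copies was not checked.

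Other sets of small proteins had medians close to that of the subunits. Of 77 mitochondrial ribosomal protein genes, 68 were above 0 (median 0.19), and of the 14 genes of the proteasome core 13 (median 0.23). With the length trend removed these medians were 0.07 and 0.08. At an unadjusted p under 0.05 in edgeR the mitochondrial ribosome had 2 genes higher and 1 lower and the proteasome core 0, beside 3.26% and 5.61% of all genes. The 14 regulators of mitochondrial biogenesis had a median of -0.04, with 6 above 0. Ppargc1a, a coactivator that drives the program in many tissues, had 6.72 and 3.69 CPM in RestpKO libraries, against 5.83 and 5.80 CPM in control libraries. Gabpa, the DNA-binding part of GABP, had 59.6 and 34.8 CPM in RestpKO libraries, against 55.2 and 52 CPM in control libraries. Esrra and Tfam had log2 fold changes of -0.06 and -0.04. Of these 4, Gabpa and Ppargc1a had the RestpKO libraries at both ends, with replicate 2 lowest, and for none of the 14 regulators did the test pass.

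Across the leave-one-out fits, 38 of the 81 members (46.9%) kept a log2 fold change above 0 in the fit on 4 libraries and in all 4 fits without 1 library, beside 28.2% of all genes, and 4 (4.94%) one below 0, beside 27.7%. Those 38 include the 9 members listed next, but also others described above, some of them nearer 0. Cyc1 and Ndufv1, for example, had 0.02 and 0.05 without RestpKO replicate 2. In that fit the log2 fold changes of the 9 were 0.42 in Cox7a2l, 0.25 in Ndufb7, 0.26 in Ndufa11 and 0.16 in Uqcrc1. In the same fit they were 0.15 in Atp5b, 0.21 in Atp5k, 0.20 in Atp5o, 0.12 in Sdhc and 0.10 in Sdhd. That these values are above 0 was fixed by the choice of the 38. Over all 81 members the fit without RestpKO replicate 2 gave a median of 0.02, with 46 above 0. Within both genotypes the difference between male and female libraries cannot be told apart from that between replicates.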

How the data were processed

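Total RNA of E18.5 pancreas was sequenced in 4 libraries, 2 RestpKO and 2 control, grouped by the genotype label. The deposited table holds raw counts by gene symbol. To obtain them the authors aligned 100-base paired-end reads to mm9 (named NCBI36/mm9 in the methods) with STAR, kept uniquely mapped reads, and counted them over UCSC mm9 genes with featureCounts (1.5 in the submitters' processing notes). The strand setting, and whether reads or pairs were counted, are not given in the sources used here, so overlapping genes and near-identical copies share reads to an unknown extent.

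Counts were tested with edgeR 4.0.16 in R 4.3.3 (filterByExpr, TMM, glmQLFit, glmQLFTest), on genotype alone, and p-values were adjusted after Benjamini and Hochberg over 14550 genes, with a threshold of 0.05. CPM use TMM-scaled library sizes. The SE is the size of the log2 fold change divided by the square root of F. Depth was 16936759 to 24134100 counts, so 3 counts, the limit that a count of 0 allows, are 0.137 to 0.179 CPM. A trend of each library with transcript length, or with GC content, was removed by offsets from a lowess curve over genes (span 0.3). Transcript lengths came from the GENCODE annotation of mm9, by symbol (20810 of 24391 genes) or synonym (1400). Copies were searched with blastn.

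Members, gene lists and tests were chosen with earlier results of these data known. Values in every library are given for isoform pairs, for up to 4 members per complex with the smallest p and up to 2 with the highest level per kb, and other members were named for their role; 1 result is not reported here. The procedure was tested on simulated data. Alternatives were the size factors of DESeq2 1.42.0, upper quartile scaling, TMM without acinar and erythroid markers, no filter, 1 CPM in 2 libraries, DESeq2, limma-voom (limma 3.58.1), sex as a term, a replicate block, the length trend with and without that block, and leaving out each library. GC content, length with GC content, and leaving out copied or overlapping members were added after seeing the data.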

Additional observations from a re-analysis of the deposited data

How the results depend on the processing

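The count of calls depended on the fit: edgeR called 4 of all genes, DESeq2 102, edgeR with sex as a term 247, and leaving out a library gave 1 to 514. In these settings 0 members were called, except 1 (Ndufb7, 0.80, adjusted p = 0.0441) without RestpKO replicate 1, and leaving out a library gave 0 to 1. A lone library is then assumed to vary like the other genotype. The median over the members ranged from 0.02 without RestpKO replicate 2 to 0.36 without RestpKO replicate 1, and was between 0.18 and 0.25 under every scaling, filter and tool; with the length trend removed it was 0.04. The median of complex II was 0.00211 with the length trend removed, 0.00293 with the block as well, and -0.032 with length and GC trends removed (chosen after seeing the data). That of complex IV was -0.00674 with the length trend removed, -0.024 with the block as well, and 0.015 to 0.40 when a library was left out. That of complex III was -0.06 to 0.41. The cause of these shifts was not tested, beyond what each setting removes.

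Replicate numbers are shared by the genotypes. The deviations from the group mean of same-numbered libraries had a correlation of 0.0478. With 2 libraries per genotype this value cannot show whether the numbers pair the libraries. With the replicate block edgeR called 4 genes and 0 members, and the members' median was 0.18.

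The log2 fold change of some members changed sign under single settings, and the cause was not tested. With limma-voom it was -0.00068 in Ndufa6 and -0.0027 in Uqcrq. With sex as a term it was -0.0009 in Ndufa6 and -0.0022 in Uqcrq. With the replicate block it was -0.00065 in Ndufa6 and -0.00037 in Uqcrq. With the length trend removed it was -0.11 in Atp5g3, -0.058 in Cox6a1, -0.025 in Cox6b1, -0.18 in Ndufa6, -0.064 in Sdhb and -0.17 in Uqcrq. With the length trend removed and the replicate block it was -0.013 in Atp5g2, -0.10 in Atp5g3, -0.061 in Cox6a1, -0.019 in Cox6b1, -0.17 in Ndufa6, -0.062 in Sdhb and -0.17 in Uqcrq. With the GC trend removed it was -0.11 in Ndufa6, -0.049 in Sdhb and -0.086 in Uqcrq. With length and GC trends removed it was -0.059 in Atp5g2, -0.18 in Atp5g3, -0.12 in Cox6a1, -0.12 in Cox6b1, -0.28 in Ndufa6, -0.18 in Sdhb, -0.054 in Uqcr10, -0.047 in Uqcrh and -0.26 in Uqcrq. When a library was left out the ranges were Atp5g2 -0.14 to 0.44, Ndufb7 0.25 to 0.80, Atp5e -0.30 to 0.83, Atp5g3 -0.14 to 0.28, Cox6a1 -0.11 to 0.34, Cox6b1 -0.11 to 0.40, Cox7a2 -0.13 to 0.55, Ndufa6 -0.14 to 0.13, Sdhb -0.015 to 0.18, Uqcr10 -0.17 to 0.62, Uqcr11 -0.11 to 0.58, Uqcrh -0.068 to 0.42 and Uqcrq -0.42 to 0.39.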
